A study of Rattus norvegicus with 12 samples.

Results

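The Acta1, Ckm and Ryr1 rows of a gene count table were followed through 12 RNA-seq libraries of crushed rat sciatic nerve. These are 3 of the 30562 gene IDs in the table, chosen by ID as skeletal muscle genes: ENSRNOG00000017786 for Acta1, ENSRNOG00000016837 for Ckm and ENSRNOG00000020557 for Ryr1. The choice was made with earlier results of these data known, so the tests of these rows may not be independent of it. The question was whether muscle RNA was present in the nerve libraries and whether it varied between libraries or groups. All 3 IDs were found, 2 of them had counts, and the same 2 passed the filter on low counts.

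Skeletal muscle fibres shorten when actin and myosin filaments slide past each other, driven by ATP and started by calcium released inside the fibre. Acta1 encodes the actin of the skeletal muscle thin filament, Ckm encodes the muscle form of creatine kinase, which regenerates ATP, and Ryr1 encodes the calcium release channel of the sarcoplasmic reticulum. Acta1 and Ckm mRNAs are among the abundant transcripts of mature skeletal muscle, and the sciatic nerve runs between muscles of the hind limb.

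The study examined exosomes from induced pluripotent stem cells (iPSC-Exos), small vesicles released by cells, as a treatment of crushed nerve. Every group was of SD (Sprague-Dawley) rats with a crushed sciatic nerve, and no uninjured library was used here. The series describes its rats as male and 5 weeks old, and the study's methods place RNA sampling at the end of the first week after surgery. Each of the 4 groups held 3 libraries, and the labels name 1 batch for all 12.

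Control libraries (replicates 1, 4 and 9) carry the crush alone in their labels, although the study's own crush group received phosphate-buffered saline. The iPSC-Exos libraries (replicates 2, 3 and 5) are labelled with 10 µL of exosomes at 103, 104 and 105 µg/mL. The series design gives the single concentration of 100 µg/mL for this treatment, so the labelled differences were not treated as doses. LIPUS libraries (replicates 2, 6 and 7) received low intensity pulsed ultrasound at 250 mW/cm² and 1 MHz, with a 20% duty cycle, for 5 minutes on 5 days of each week over 4 weeks. The iPSC-Exos+LIPUS libraries (replicates 1, 2 and 3) had 10 µL of exosomes at 100 µg/mL and the same ultrasound. That course is longer than the sampling time in the study's methods, so the day on which the ultrasound groups were sampled is not known. The tissue label reads whole brain, whereas the extraction protocol names sciatic nerve. The table holds IDs without symbols, and the tissue was not checked against markers. The pairing of the 3 IDs with their symbols could not be checked: the symbols were each found in the reference table of 47357 genes, but 0 of its genes carried an Ensembl ID. The labels name the build Rnor_6.0, and whether the annotation behind the IDs belongs to that build could not be checked. The IDs run up to ENSRNOG00000071219, and IDs numbered so high may come from a later annotation than that of the build named. If the annotation does not belong to the build named, the counts in any of the 3 rows could come from other genes. The rows are therefore called the Acta1, Ckm and Ryr1 rows, and every level and fold change given for them is that of the row and not necessarily of the gene.

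Total counts ran from 1251715 in LIPUS replicate 2 to 1854545 in Control replicate 9, and 7470 to 8704 genes had a count. Control replicate 9 stood apart from the other libraries. A single gene, ENSRNOG00000020644, held 32.5% of its counts, against 0.391% to 9.28% in the other 11 libraries, and its TMM factor was 0.626, against 0.973 to 1.09. Levels are given as CPM, the count per library total times its TMM factor, expressed per 1e+06, a scaling that gives extreme genes little weight. With TMM the 3 counts taken as the detection floor corresponded to 1.91 to 2.58 CPM. Counting error alone is covered by these floors and by the intervals of single libraries.

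The reference sequences just before the start of the 3 genes are shown because these genes are used together as muscle markers while their rows behaved differently here. All 3 symbols matched the RefSeq promoters of build GRCr8, with Acta1 at chr19:68784195-68784444 on the minus strand, Ckm at chr1:88189211-88189460 on the plus strand and Ryr1 at chr1:93551306-93551555 on the minus strand. Each run is 250 bases upstream of the annotated gene start, and capitals mark matches to the motifs searched on both strands.
Acta1: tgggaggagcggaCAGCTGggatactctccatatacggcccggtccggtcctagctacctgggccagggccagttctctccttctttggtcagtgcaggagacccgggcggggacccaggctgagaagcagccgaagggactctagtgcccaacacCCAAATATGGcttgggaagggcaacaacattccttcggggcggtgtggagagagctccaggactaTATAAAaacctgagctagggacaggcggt
Ckm: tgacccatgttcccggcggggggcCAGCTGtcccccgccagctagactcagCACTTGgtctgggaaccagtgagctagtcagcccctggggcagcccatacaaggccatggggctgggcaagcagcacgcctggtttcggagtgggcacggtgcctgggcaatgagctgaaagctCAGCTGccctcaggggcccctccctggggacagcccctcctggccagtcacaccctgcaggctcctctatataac
Ryr1: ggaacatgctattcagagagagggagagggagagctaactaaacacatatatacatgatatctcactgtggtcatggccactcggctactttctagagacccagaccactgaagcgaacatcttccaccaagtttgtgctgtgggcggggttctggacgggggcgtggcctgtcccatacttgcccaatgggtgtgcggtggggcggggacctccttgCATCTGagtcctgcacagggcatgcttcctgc

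The motifs were the E-box (CANNTG, read by myogenic factors), the TATA box (TATAAA), the CArG box of serum response factor and the MEF2 box. The Acta1 sequence held an E-box 237 bases before the start, the CArG box CCAAATATGG at 94 bases and a TATA box at 29 bases. E-boxes began 226, 199 and 75 bases before the start of Ckm and 32 bases before that of Ryr1, and no matches overlapped. Of 33469 promoters of the same length, 65.5% held an E-box, 12.9% the TATA box, 1.50% a CArG box and 2.96% a MEF2 box, which none of the 3 sequences held. An E-box was thus common, and the CArG box of Acta1 was the rarest match among them. The GC content was 59.6% for Acta1, 65.6% for Ckm and 55.6% for Ryr1, against a median of 51.2% over all promoters. A match describes letters in a window and not a bound site.

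The Ckm row, for the enzyme that buffers ATP in muscle, had a count of 0 in all 12 libraries. This held in Control replicate 9 as well, where the floor was 2.58 CPM, and in LIPUS replicate 6, where it was lowest at 1.91 CPM. The row was thus below the floor in every group, and no fold change or test could be given. Of the 30562 IDs, 16264 (53.2%) were also at 0 in every library. Which annotation release the reads were counted against is not given in the sources used here, so a true absence, a row that could take no reads and reads assigned to another gene cannot be told apart.

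The Acta1 row, for thin filament actin, was detected in every library. In Control its counts were 151, 117 and 89 in replicates 1, 4 and 9, which correspond to 107, 83.7 and 76.6 CPM. In iPSC-Exos 139, 185 and 132 counts in replicates 2, 3 and 5 gave 106, 131 and 95.9 CPM. These groups overlapped, since Control replicate 1 lay above iPSC-Exos replicates 2 and 5. In LIPUS 100, 175 and 117 counts in replicates 2, 6 and 7 gave 77.0, 112 and 81.3 CPM, and in iPSC-Exos+LIPUS 110, 125 and 154 counts in replicates 1, 2 and 3 gave 77.5, 83.2 and 107 CPM. Both lay within the span of the other groups, with 1 library above a lower pair in each.

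Group means of the Acta1 row were, in rising order, 89.0 ± 15.7 CPM in Control, 89.3 ± 15.8 in iPSC-Exos+LIPUS, 89.9 ± 18.9 in LIPUS and 111 ± 18.2 in iPSC-Exos (SD, n = 3 each). The libraries of neighbouring groups overlapped at each step of this order. The largest step, from LIPUS to iPSC-Exos, was larger than the SD of either group and was not tested. The highest library, iPSC-Exos replicate 3, was 1.71 times (95% interval 1.32 to 2.23) the lowest, Control replicate 9. Without the TMM factor Control replicate 9 fell to 48.0 CPM and the ratio grew to 2.85. Acta1 belongs to a family of closely related actin genes, and how reads that fit several of them were counted is not given in the sources used here, so its level is uncertain. In whole tissue, fewer cells of a type and less RNA per cell cannot be told apart.

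The Ryr1 row, for the calcium release channel, was also detected in every library and its values with and without exosomes did not overlap. In Control 1491, 1427 and 1565 counts in replicates 1, 4 and 9 gave 1053, 1021 and 1347 CPM, and in LIPUS 1419, 1590 and 1768 counts in replicates 2, 6 and 7 gave 1092, 1014 and 1228 CPM. In iPSC-Exos 3734, 2573 and 2183 counts in replicates 2, 3 and 5 gave 2842, 1826 and 1586 CPM. In iPSC-Exos+LIPUS 3435, 2963 and 4877 counts in replicates 1, 2 and 3 gave 2420.3, 1973 and 3397 CPM. Every library labelled with exosomes was above every library without them, as for 1.79% of the 4640 genes tested in 12 libraries. The closest approach was between iPSC-Exos replicate 5 and Control replicate 9.

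**Figure D1:**
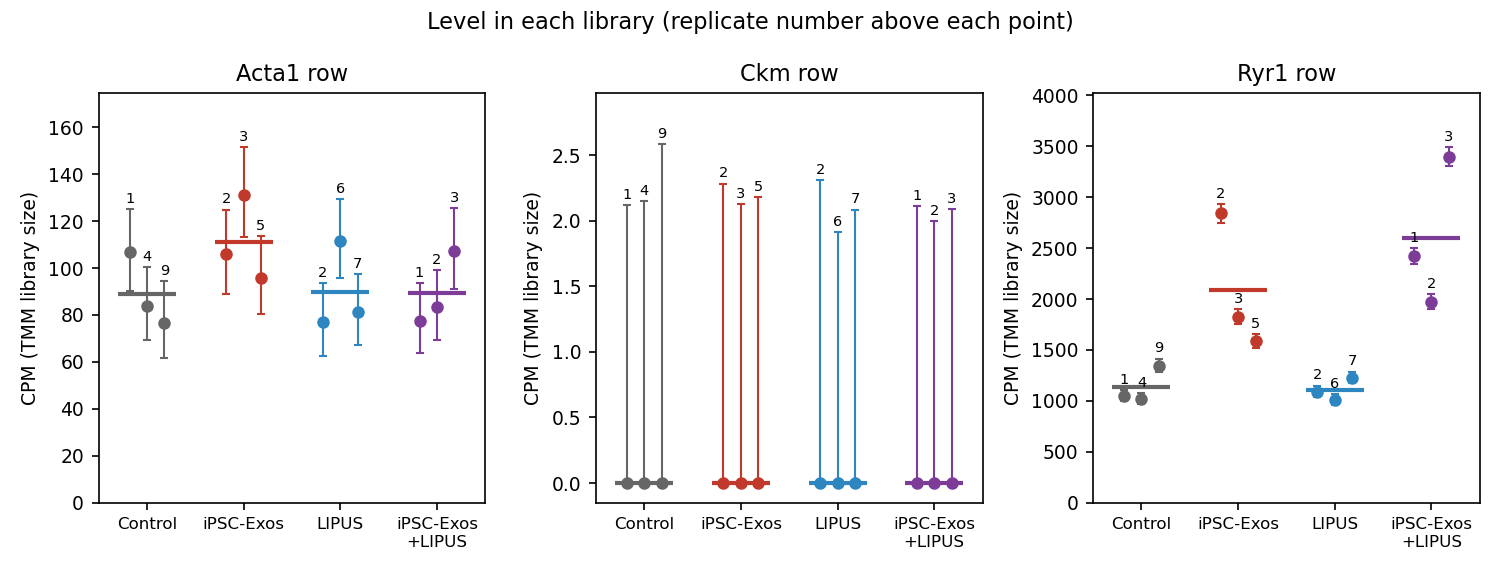
Level of the Acta1, Ckm and Ryr1 rows in CPM on TMM library sizes (vertical axes start at or just below 0 and differ between panels) in the 12 libraries by group, with exact Poisson 95% intervals (for a count of 0, up to 3 counts), the replicate number above each point and a bar at the group mean. The Ckm points are all at 0, the Acta1 groups overlap, and the 6 Ryr1 points with iPSC-Exos, from 1586 to 3397 CPM, are above the 6 without, from 1014 to 1347 CPM.

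Mean levels of the Ryr1 row rose from 1111 ± 108 CPM in LIPUS and 1140.3 ± 179.8 in Control to 2085 ± 667 in iPSC-Exos and 2597 ± 728 in iPSC-Exos+LIPUS (SD, n = 3 each). LIPUS and Control overlapped, as did the pair of groups with exosomes. The highest library, iPSC-Exos+LIPUS replicate 3, was 3.35 times (95% interval 3.17 to 3.55) the lowest, LIPUS replicate 6. On total counts the lowest was Control replicate 9, at 844 CPM, and the ratio was 4.12. Control replicate 9 was thus the highest Control library with the TMM factor and the lowest without it.

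Variation between replicates was set beside that of the 4640 genes tested in 12 libraries. The SD of log2 CPM about the group means was 0.25 (95% interval 0.17 to 0.48) for the Acta1 row and 0.32 (0.22 to 0.62) for the Ryr1 row, against a median of 0.31 over all tested genes. These lay at the 36.1 and 51.4 percentiles. The SD between the 4 group means was 0.16 for the Acta1 row and 0.60 for the Ryr1 row, at the 38.4 and 94.7 percentiles, with a median of 0.19. On total counts in place of TMM sizes, the SD within groups of the Acta1 row was 0.38 and its median over genes 0.39, at the 47.8 percentile, and for the Ryr1 row the percentiles were 36.5 within and 95.7 between groups. The Ryr1 row was thus among the more variable genes between groups on both scales, and within groups neither row stood apart from the genes at large.

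Whether either row varied by group at all was tested over the 4 groups. For the Ryr1 row the adjusted p was 0.0147 (F = 15.5, edgeR quasi-likelihood F test, Benjamini-Hochberg over 4640 genes), where 2.07% of tested genes were below 0.05. For the Acta1 row the adjusted p of the same edgeR test was 0.750 (F = 1.24). The labels do not say which animal each library came from, so these p-values measure the spread between libraries.

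The comparison the study made, iPSC-Exos against Control, was fitted on its 6 libraries. All 3 iPSC-Exos libraries had more Ryr1 row CPM than all 3 Control libraries, a pattern shown by 6.98% of the 4640 genes. The log2 fold change was 0.87 (SE 0.23, 95% interval 0.34 to 1.40), a fold of 1.83, and the edgeR quasi-likelihood test gave a Benjamini-Hochberg adjusted p of 0.364, so it did not pass, and 0.0468% of the 4278 genes tested did. It did have an unadjusted edgeR p of at most 0.05 with a log2 fold change of at least 0.5, as did 3.23% of genes in the upward direction; these thresholds are those of the study, which applied them to DESeq2 and not to edgeR. DESeq2 gave an adjusted p of 0.0316, with 24 genes called of the 12167 with a p-value. Its default filter leaves low-count genes out, so the adjustment was over fewer genes than that. Without a filter on low counts edgeR gave an adjusted p of 0.000711, with 108 of 12173 genes called. The adjusted p of edgeR or DESeq2 ran from 0.000711 to 0.987 over 14 alternatives. The Acta1 row had a log2 fold change of 0.32 (SE 0.20, 95% interval -0.13 to 0.77) and an adjusted p of 0.742 by edgeR.

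Exosomes were also compared in ultrasound-treated nerve, in iPSC-Exos+LIPUS against LIPUS, which shares no library with the comparison just given. The Ryr1 row was higher in 3 of 3 libraries than in any LIPUS library, as were 13.1% of genes. Its log2 fold change was 1.23 (SE 0.22, 95% interval 0.74 to 1.71), a fold of 2.34, with a Benjamini-Hochberg adjusted p of 0.0131 (edgeR quasi-likelihood), a call made in the upward direction for 1.36% of 4640 genes. The adjusted p of that edgeR test rose to 0.0582, 0.0574, 0.0588 and 0.0897 without LIPUS replicate 2, LIPUS replicate 6, LIPUS replicate 7 and iPSC-Exos+LIPUS replicate 3, and over 20 alternatives it ran from 1.51e-13 to 0.0897. The Acta1 row had a log2 fold change of -0.01 (SE 0.20, 95% interval -0.44 to 0.42).

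Against Control, the combined treatment gave a log2 fold change of 1.19 (SE 0.22, 95% interval 0.71 to 1.67) for the Ryr1 row, a fold of 2.28. All 3 libraries were above all 3 of Control, as for 9.31% of genes, and the Benjamini-Hochberg adjusted p was 0.0179 (edgeR quasi-likelihood), with 1.10% of 4640 genes called higher. Without Control replicate 4 and without iPSC-Exos+LIPUS replicate 3 the edgeR adjusted p was 0.0697 and 0.0949, within a range of 9.27e-13 to 0.0949 over 20 alternatives. The Acta1 row stood at 0.00473 on the log2 scale (95% interval -0.43 to 0.44). This comparison shares its Control libraries with iPSC-Exos against Control and its iPSC-Exos+LIPUS libraries with the comparison against LIPUS, so the 3 are not independent.

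Ultrasound was examined in LIPUS against Control and in iPSC-Exos+LIPUS against iPSC-Exos. In the former the Ryr1 row had a log2 fold change of -0.04 (95% interval -0.51 to 0.44) and the Acta1 row 0.02 (-0.42 to 0.45). In the latter they were 0.32 (-0.16 to 0.79) and -0.31 (-0.74 to 0.12). With each library left out the latter ran from 0.07 (without iPSC-Exos+LIPUS replicate 3) to 0.60 (without iPSC-Exos replicate 2) for the Ryr1 row, and from -0.47 (without iPSC-Exos+LIPUS replicate 3) to -0.17 (without iPSC-Exos replicate 3) for the Acta1 row. Neither row passed, and edgeR called 0 (0%) of 4640 genes in each comparison, with 113 and 256 genes at an unadjusted p under 0.05 and 0 and 21 of 14285 genes by DESeq2. Without a filter on low counts edgeR called 47 and 85 of 14298 genes, neither row among them. With the replicate number as a block, edgeR called 11 of 4341 genes in the latter, neither row among them. These intervals do not show that the levels were alike.

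Whether the exosome effect differed with and without ultrasound was tested as an interaction, the difference between the log2 fold changes of iPSC-Exos+LIPUS over LIPUS and of iPSC-Exos over Control. For the Ryr1 row it was 0.35 (SE 0.31, 95% interval -0.32 to 1.03), with a Benjamini-Hochberg adjusted p of 0.999 (edgeR quasi-likelihood). For the Acta1 row it was -0.33 (SE 0.28, 95% interval -0.94 to 0.28). The edgeR test called 0 (0%) of 4640 genes, with 196 at an unadjusted p under 0.05, 0 of 14285 by DESeq2 and 64 of 14298 by edgeR without a filter on low counts, neither row among them. With each library left out the Ryr1 interaction ranged from 0.09 (without iPSC-Exos+LIPUS replicate 3) to 0.63 (without iPSC-Exos replicate 2) and the Acta1 interaction from -0.50 (without iPSC-Exos+LIPUS replicate 3) to -0.15 (without LIPUS replicate 6), so their size rests on single libraries. A difference in the exosome effect between the settings was therefore not shown for either row.

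A comparison of every library given exosomes (n = 6) with every library not given them (n = 6) was added after the values had been seen, so it is a description of the pattern more than a separate test. The Ryr1 row had a median of 2197 CPM (1586 to 3397) with exosomes and 1072 CPM (1014 to 1347) without. All 6 were above all 6, as for 1.79% of the 4640 genes. The log2 fold change was 1.05 (SE 0.16, 95% interval 0.71 to 1.39), a fold of 2.07, with a Benjamini-Hochberg adjusted p of 0.00188 (edgeR quasi-likelihood), and 2.65% of genes were called higher. A larger log2 fold change was found for 102 genes (2.20%), so the Ryr1 row was in the upper tail of the table without being at its edge.

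**Figure D2:**
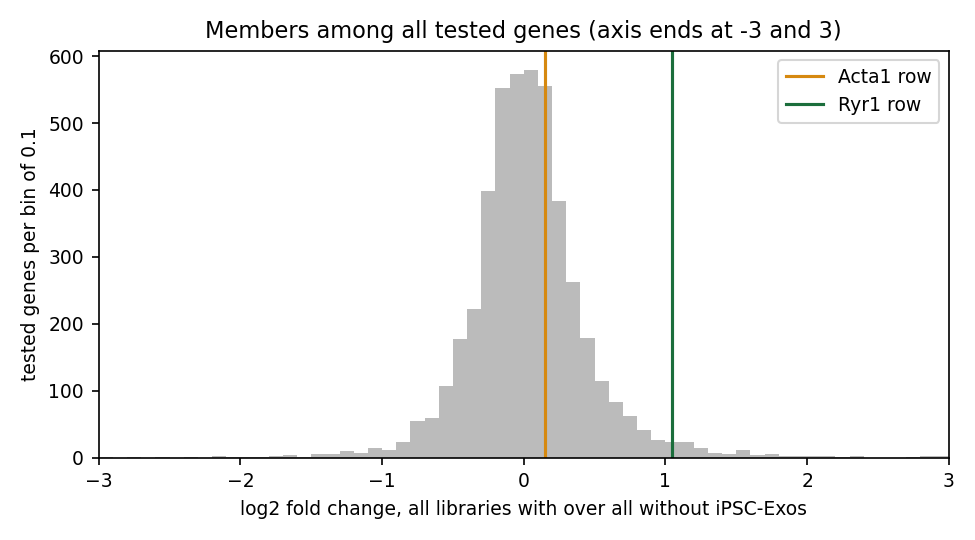
Histogram of the log2 fold change between all libraries with and all without iPSC-Exos for the 4640 tested genes (horizontal axis in log2 units, vertical axis in genes per bin), with a line for each row that could be tested. The Acta1 row, at 0.15, lies within the bulk of the genes and the Ryr1 row, at 1.05, in the upper tail.

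For the Acta1 row no difference passed over the same 12 libraries. Its median was 101 CPM (77.5 to 131) with them and 82.5 CPM (76.6 to 112) without, and the sets overlapped widely. The log2 fold change was 0.15 (SE 0.14, 95% interval -0.15 to 0.46), with an adjusted p of 0.579 by edgeR. The comparison of all libraries with and all without LIPUS was likewise not planned in advance. Its log2 fold change was 0.14 (SE 0.16, 95% interval -0.20 to 0.48) for the Ryr1 row and -0.15 (SE 0.14, 95% interval -0.45 to 0.16) for the Acta1 row. For LIPUS edgeR called 0 (0%) of 4640 genes, with 183 at an unadjusted p under 0.05, 3 of 14285 by DESeq2 and 50 of 14298 by edgeR without a filter on low counts, neither row among them.

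Since Control replicate 9 stood apart, the comparisons with Control were repeated without it. The Ryr1 row then had a log2 fold change of 1.01 in iPSC-Exos against Control (edgeR adjusted p = 0.165) and 1.33 in iPSC-Exos+LIPUS against Control (edgeR adjusted p = 0.0168), and 1.12 between all libraries with and without exosomes (edgeR adjusted p = 0.00140). For LIPUS against Control the signs turned, to 0.11 for the Ryr1 row and -0.07 for the Acta1 row, and neither passed. The differences of the Ryr1 row with exosomes were thus no smaller without that library, and the Control mean was 1037 CPM for the Ryr1 row and 95.2 CPM for the Acta1 row.

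**Figure D3:**
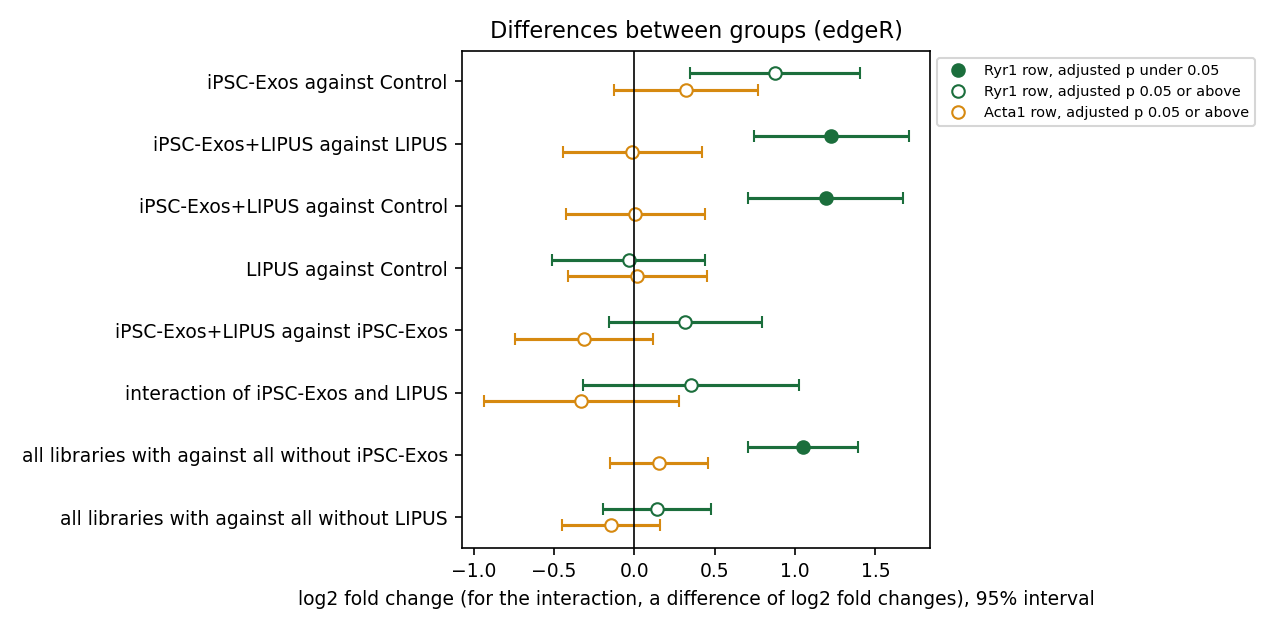
Log2 fold changes of the Acta1 and Ryr1 rows with 95% intervals in 8 comparisons (horizontal axis in log2 units, for the interaction a difference of log2 fold changes), with filled points for an edgeR adjusted p under 0.05. Filled points are found for the Ryr1 row in 3 comparisons that contrast libraries with and without iPSC-Exos, from 1.05 to 1.23, while every Acta1 interval spans 0.

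The Acta1 and Ryr1 rows were then set against each other to see if their levels rose and fell together. Over all 12 libraries Pearson's r of the log2 CPM was 0.212 (permutation p = 0.499) and Spearman's rho 0.0350 (permutation p = 0.916), and r was 0.404 without iPSC-Exos replicate 3 and LIPUS replicate 6, the libraries farthest from the median of the Acta1 row. No common movement was thus shown over the whole series. Since the Ryr1 row differed with exosomes, the relation was also examined, after the values had been seen, where exosomes were given (6 libraries) and where they were not (6 libraries). With exosomes, Pearson's r of the log2 CPM was 0.0164 (exact permutation p = 0.961, n = 6) and Spearman's rho 0.0857 (exact p = 0.919). Leaving out the farthest pair there, iPSC-Exos replicate 3 and iPSC-Exos+LIPUS replicate 1, gave r = 0.699. That set therefore showed no common movement as a whole, and its r turned on those libraries.

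Without exosomes, r was -0.641 (exact permutation p = 0.114, adjusted p over the 3 relations by Benjamini-Hochberg 0.342, n = 6). Spearman's rho was -0.886 (exact permutation p = 0.0333, adjusted 0.10). Leaving out Control replicate 1 and LIPUS replicate 6 gave r = -0.582. On total counts in place of TMM sizes r turned to 0.657, so the sign of this relation depended on the scaling, and no adjusted value of the 3 relations passed 0.05. With group means subtracted, r over the 12 libraries was 0.0577 and rho -0.0140, as a description.

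**Figure D4:**
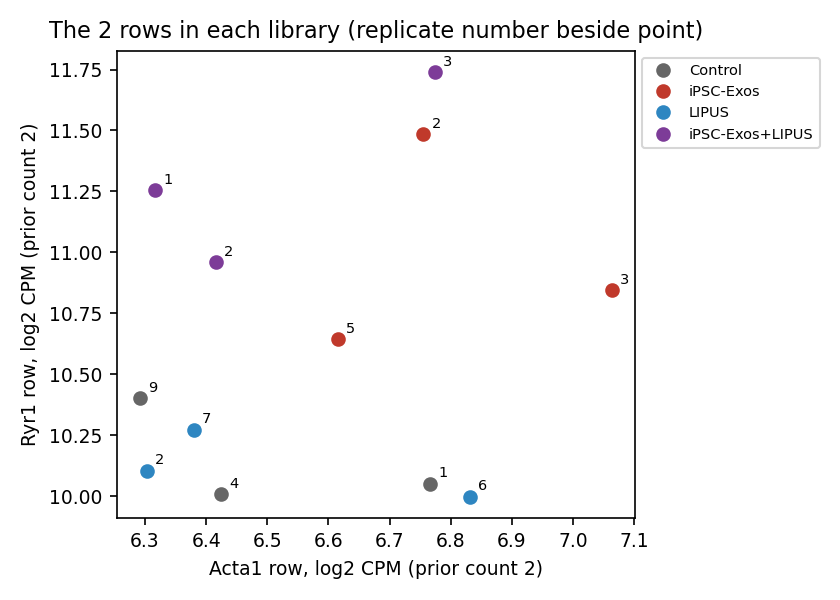
Log2 CPM (prior count of 2) of the Ryr1 row on the vertical axis against the Acta1 row on the horizontal axis, 1 point per library, coloured by group, with the replicate number beside it. Libraries with iPSC-Exos lie above those without at any level of the Acta1 row, and no common rise of the rows is seen.

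The ratio of the Ryr1 count to the Acta1 count within a library needs no scaling between libraries and cancels gene length when libraries are compared. In Control it was 9.87, 12.2 and 17.6 in replicates 1, 4 and 9, and in LIPUS 14.2, 9.09 and 15.1 in replicates 2, 6 and 7. Values of 26.9, 13.9 and 16.5 were found in replicates 2, 3 and 5 of iPSC-Exos, with 31.2, 23.7 and 31.7 in replicates 1, 2 and 3 of iPSC-Exos+LIPUS. Every iPSC-Exos+LIPUS library exceeded all Control and LIPUS libraries, while iPSC-Exos overlapped both. The group means were 13.2 ± 3.96 in Control, 12.8 ± 3.25 in LIPUS, 19.1 ± 6.85 in iPSC-Exos and 28.9 ± 4.48 in iPSC-Exos+LIPUS (SD, n = 3 each). The ratio was looked at after the values had been seen and was not tested.

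The gene whose pattern over the 12 libraries was nearest to each row was found by the root mean square (RMS) difference in log2 CPM after centring, among 4638 other genes. For the Ryr1 row this was ENSRNOG00000005246, with an RMS of 0.181 against a median of 0.665 over all genes. Its levels were 915, 1078 and 1496 CPM in Control, 964, 1045 and 919.6 in LIPUS, 2501, 1602 and 1718 in iPSC-Exos, and 2427, 2221 and 3764 in iPSC-Exos+LIPUS, replicates in the order given above. As in the Ryr1 row, iPSC-Exos+LIPUS replicate 3 was highest and Control replicate 9 was the highest Control library. As it was picked for its likeness to the Ryr1 row in these libraries, its differences between groups restate those of that row and no test is given.

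For the Acta1 row the nearest gene was ENSRNOG00000013121, with an RMS of 0.143 against a median of 0.403. The RMS between the Acta1 and Ryr1 rows themselves was 0.582, so each row had a nearer gene in the table than the other muscle row; the smallest of 4638 differences is small by construction. Neither ID is paired with a symbol in the files.

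**Figure D5:**
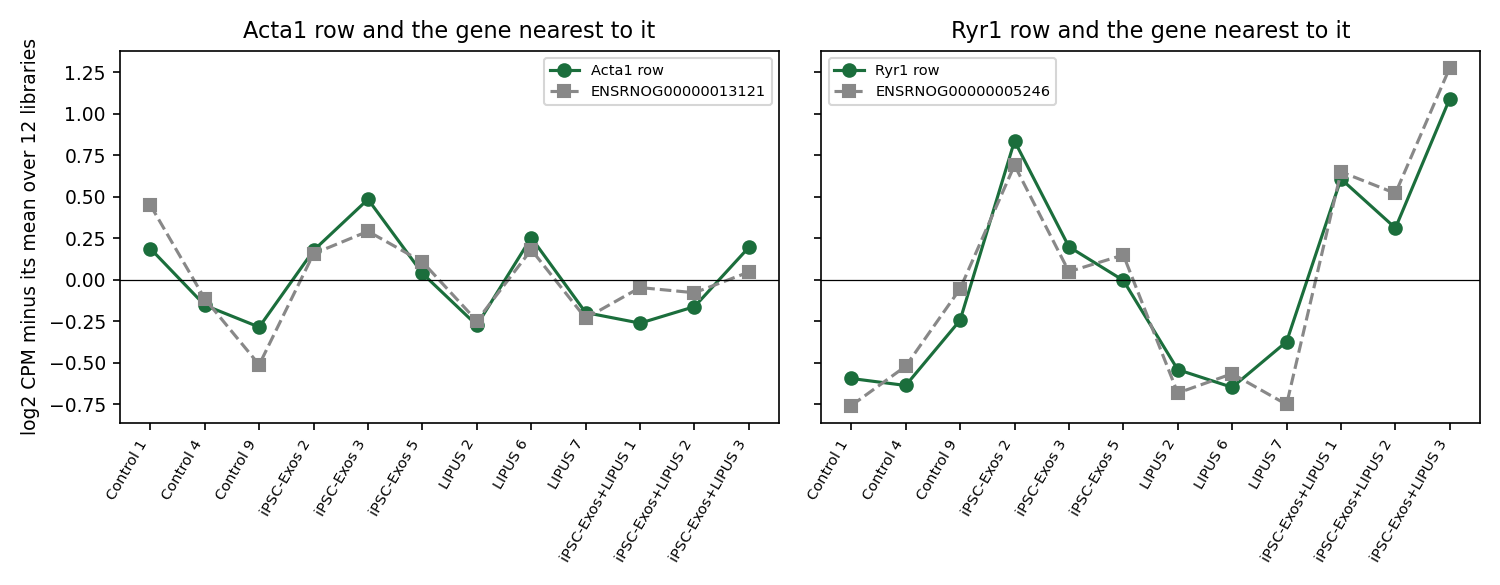
Log2 CPM of the Acta1 row (left) and the Ryr1 row (right) in the 12 libraries, each minus its own mean (vertical axis in log2 units), with the gene nearest to it drawn in grey. The lines join libraries only to guide the eye, and the Ryr1 row and its neighbour, 0.181 apart by RMS, are both above their means in iPSC-Exos replicates 2 and 3 and in all iPSC-Exos+LIPUS libraries, while LIPUS replicate 7 is the highest LIPUS library of the Ryr1 row and the lowest of its neighbour.

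The 3 rows thus did not behave as a single group of skeletal muscle genes. The Ckm row was at 0 throughout, and the Acta1 row was present at a level that did not separate the groups. The Ryr1 row was higher in all libraries labelled with exosomes than in all others, as were 1.79% of the 4640 genes tested. From these rows alone it cannot be said whether muscle fibre RNA was in the libraries, and the share of muscle RNA in the Ryr1 difference was not tested.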

How the data were processed

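Libraries were made by the authors from poly-T selected mRNA. Per the labels, reads were trimmed with Trimmomatic 0.38 and aligned with HISAT2 2.0.5, and build Rnor_6.0, SAMtools and StringTie are also named. The deposited values are raw counts per gene ID in 1 table of 12 columns; the counting tool, its strand setting and the annotation release are not given in the sources used here.

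The whole table was fitted with edgeR 4.0.16 in R 4.3.3 (filterByExpr, TMM, quasi-likelihood F test) and p-values were adjusted by Benjamini-Hochberg over all genes tested. The comparison of iPSC-Exos against Control used its 6 libraries and the others used all 12. A call needs an adjusted p under 0.05. DESeq2 calls are given out of all genes with a p-value, although its default filter could leave low-count genes out of the adjustment. For correlations, log2 CPM (prior count 2) and two-sided permutation tests were used, with 100000 resamples over 12 libraries and exact over 6. Pairs with Ckm have no spread. Genes named beside the members are those with the nearest pattern. Marker lists by symbol, for muscle and other cell types, were not analysed because no table used here pairs IDs with symbols. Alternatives were DESeq2 1.42.0, other size factors, other filters, other sets of libraries, each replicate left out and, chosen after seeing the data, a robust prior and removal of the gene with the most counts. The fits were tested on simulated data. Of simulated log2 changes of 1, 43.8% were recovered for iPSC-Exos against Control and 52.8% for iPSC-Exos+LIPUS against Control. Between all libraries with and without iPSC-Exos 85.3% were recovered. For changes of 2 the shares were 100%, 98.1% and 100%. These shares belong to the simulated data, and recovery in the sequenced libraries themselves was not tested. The members and lists were chosen with earlier results of these data known.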

Additional observations from a re-analysis of the deposited data

How the results depend on the processing

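Of 397 alternative values for 33 results, 373 kept their direction and their side of the threshold, or moved by less than 1 SD. The Ryr1 difference between all libraries with and without iPSC-Exos, a comparison added after the values had been seen, kept both in all 19 alternatives. The edgeR adjusted p was at most 0.00874, and with each library left out the difference ranged from 0.90 to 1.13 on the log2 scale. The test of any difference between the 4 groups also passed in all 19, at an edgeR adjusted p of at most 0.0483.

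For iPSC-Exos against Control the Ryr1 log2 fold change was 0.87 by DESeq2 and 0.87 without a filter on low counts, and both passed (adjusted p 0.0316 and 0.000711, range 0.000711 to 0.987), while leaving out each library gave 0.58 to 1.03 and did not. With each library left out, the Ryr1 row ranged from 0.94 to 1.35 for iPSC-Exos+LIPUS against Control, which passed in 10 of 12 fits, from 0.97 to 1.39 against LIPUS, which passed in 8 of 12, and from -0.11 to 0.11 for LIPUS against Control. The Acta1 row ranged from -0.17 to 0.18 for LIPUS against Control, from -0.15 to 0.16 for iPSC-Exos+LIPUS against Control and from -0.17 to 0.17 against LIPUS, so its sign there is not determined; without a filter it was -0.000822 for iPSC-Exos+LIPUS against Control. For all of these the cause was not tested.

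On total counts the highest library over the lowest was 2.85 for the Acta1 row and 4.12 for the Ryr1 row, and the correlation of the rows, which stayed positive over all 12 libraries (0.423), turned to -0.00695 with iPSC-Exos and 0.657 without. Here the gene that held 32.5% of Control replicate 9 enters the library size directly. With the gene with the most counts taken out of each total, the ratios were 1.97 for the Acta1 row and 3.36 for the Ryr1 row. The correlations were not computed on that scale.

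The iPSC-Exos and iPSC-Exos+LIPUS groups share replicate numbers 2 and 3. Same-numbered libraries had a mean correlation of deviations of -0.0651 over 2 pairs, against 0.0185 over 7 others, so the numbers were not taken as pairs. With the replicate block the log2 fold change was 0.18 for the Ryr1 row and -0.32 for the Acta1 row, and neither row was called, while the number of genes called in this comparison went from 0 to 11 of 4341 against the same 6 libraries without the block. The other comparisons share fewer than 2 numbers or span more groups.

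Each group had 3 libraries, and the Acta1 row had counts of 89 to 185 beside a spread within groups of 0.25 on the log2 scale. Small differences may have been missed, and which of these limits more was not tested. The simulated log2 changes were 1 and 2, and smaller ones were not tried.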
